A study of Mus musculus with 32 samples.

Results

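Homeostatic microglia signature genes are transcripts that resting microglia, the resident macrophages of the brain, carry at high levels and that are commonly used to tell them from other macrophages. The 9 genes described here were taken by symbol from the deposited count table: P2ry12, P2ry13, Tmem119, Siglech, Cx3cr1, Gpr34, Olfml3, Slc2a5 and Ltc4s. They are 9 of the 23337 genes in the table, and all 9 had enough counts to be tested in both sorted populations.

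The study sorted macrophages and tumour cells from mouse gliomas to compare tumours given vehicle with tumours given BLZ945, an inhibitor of the CSF-1 receptor (CSF-1R). All mice were XFM mice, a strain name that the labels do not expand, and all received an intracranial injection of DF-1:PDGFB cells at an age of 5 to 6 weeks. DF-1 is a chicken fibroblast line used to make avian retroviruses, here labelled for the growth factor PDGFB. Mice entered the trial at a tumour volume of 20 to 40 mm3 and were dosed every day with vehicle or BLZ945, to the onset of symptoms or an age of 26 weeks. Tumours were digested with papain, and cells were sorted as Cd11b+ Gr1- tumour-associated macrophages (TAM) or as PDGFRA+ tumour cells (TC).

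Vehicle tumours gave 5 TAM and 5 TC libraries. Endpoint tumours, whose source names call them dormant, gave 6 and 6. Rebound tumours gave 5 and 5. Since all libraries, the Vehicle ones too, carry BLZ945 as their agent, the stage label was used to assign treatment. Libraries are named by stage and mouse number. There were 17 mice in all, each of 1 stage, and both sorts were sequenced from 15 of them. A sorted TAM library can hold microglia and macrophages that entered from the blood, since both carry Cd11b.

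TAM libraries held 25556830 to 30383148 counts in Vehicle, 9543888 to 15789460 in Endpoint and 15352174 to 19561440 in Rebound, and TC libraries held 4180176 to 22989777. Every count of the Endpoint and Rebound libraries was even, whereas 47.1 to 49.5% of the nonzero counts of Vehicle libraries were, so a difference in how the tables were made and the difference between Vehicle and BLZ945 cannot be told apart. The comparison of Rebound with Endpoint does not cross that line. Csf1r, which encodes the drug target, was 10887 ± 3733 counts per 1000000 library counts (CPM) in Vehicle TAMs (SD, n = 5), 7152 ± 756 CPM in Endpoint (n = 6) and 4520 ± 914 CPM in Rebound (n = 5). In the TC libraries Pdgfra, the gene of the sort marker, was 1989 ± 1269 CPM in Vehicle and 1884 ± 899 CPM in Rebound (n = 5 each) but 172 ± 187 CPM in Endpoint (n = 6), so the libraries labelled TC Endpoint held little transcript of their sort marker.

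Homeostatic microglia depend on signalling through CSF-1R for survival and on TGF-beta for their identity, and the transcription factor PU.1 acts at many of their genes. Several of the 9 genes encode surface proteins with which microglia sense their surroundings. P2ry12 and P2ry13 encode purinergic receptors for adenosine diphosphate, and P2Y12 directs microglial processes towards released nucleotides. Cx3cr1 encodes the receptor for the neuronal chemokine fractalkine, and Gpr34 a receptor for lysophosphatidylserine. Siglech encodes a member of the Siglec family, named for sialic acid-binding lectins, that is also found on plasmacytoid dendritic cells. Tmem119 encodes a transmembrane protein widely used to stain microglia, and Olfml3 a secreted olfactomedin-like protein. Slc2a5 encodes the fructose transporter GLUT5, and Ltc4s the enzyme leukotriene C4 synthase. These levels are often lower in microglia that are activated or cultured. For several of the genes, though not for all, they are low or absent in most macrophages from the blood.

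P2ry12 and P2ry13 are neighbours on the minus strand of chromosome 3 (GRCm38), at 59216272 to 59262871 and 59207892 to 59210882, with 5389 bases between them. Olfml3 is further along the same chromosome, at 103722222 to 103738001. Tmem119 lies on chromosome 5 (113793729 to 113800516), Siglech on chromosome 7 (55768178 to 55778925) and Cx3cr1 on chromosome 9 (119901616 to 120069879). Gpr34 lies on the X chromosome (13632089 to 13640858), Slc2a5 on chromosome 4 (150119283 to 150144169) and Ltc4s on chromosome 11 (50236461 to 50238616). The library kit does not mark strand, so reads from overlapping genes on opposite strands cannot be told apart. Exons of Ltc4s share 268 bases with the antisense gene Gm26542. Those of Cx3cr1 share 78 bases with the antisense gene Gm33858, and those of P2ry12 share 9 with Med12l.

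Promoter windows from RefSeq (GRCm38.p6) were found for 7 of the 9 genes. A window runs from 250 bases before the transcription start to 50 after, and the first 280 bases are printed. Matches were sought on both strands to GAGGAA, the core bound by PU.1 and its relatives, and to CAGACA, a SMAD motif of the TGF-beta pathway. The windows of 3 genes are shown: the neighbours P2ry12 and P2ry13, both called lower than Vehicle in Endpoint and in Rebound, and Siglech, called lower in Rebound alone. They are written 5′ to 3′ on the strand of the gene, with motif matches in capitals. TGTCTG and TTCCTC are CAGACA and GAGGAA read from the other strand.
P2ry12, chr3:59262956-59263235, minus strand: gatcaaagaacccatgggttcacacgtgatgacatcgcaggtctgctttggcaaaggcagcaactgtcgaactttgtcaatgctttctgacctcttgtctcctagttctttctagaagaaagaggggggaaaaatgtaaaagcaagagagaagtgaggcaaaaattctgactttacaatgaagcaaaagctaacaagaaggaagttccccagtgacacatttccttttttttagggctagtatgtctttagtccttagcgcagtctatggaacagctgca
P2ry13, chr3:59210853-59211132, minus strand: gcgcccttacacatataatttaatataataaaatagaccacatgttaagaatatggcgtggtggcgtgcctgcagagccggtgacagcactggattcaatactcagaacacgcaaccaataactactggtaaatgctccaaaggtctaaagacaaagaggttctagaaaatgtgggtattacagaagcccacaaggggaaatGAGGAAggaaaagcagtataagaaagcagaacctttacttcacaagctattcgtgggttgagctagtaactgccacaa
Siglech, chr7:55767934-55768213, plus strand: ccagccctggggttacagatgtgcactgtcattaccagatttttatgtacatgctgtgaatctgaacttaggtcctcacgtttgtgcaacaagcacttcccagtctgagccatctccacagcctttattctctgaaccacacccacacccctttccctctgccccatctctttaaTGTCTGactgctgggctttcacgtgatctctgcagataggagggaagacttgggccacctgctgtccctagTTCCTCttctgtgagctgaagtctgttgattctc

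The P2ry12 window held neither motif. P2ry13 held a PU.1 core 48 bases before its start. Siglech held one 4 bases before its start and a SMAD motif 75 bases before it. Of the 7 windows, 3 held the PU.1 core (P2ry13, Siglech and Ltc4s), as did 28.3% of the 32851 windows in the table. A SMAD motif was in 2 of 7 (Slc2a5 and Siglech) and in 21.0% of all windows. Neither the MAF motif TGCTGAC (4.67% of all windows) nor the MEF2 motif (0.557%) was found in the 7. These matches describe the letters of the windows only.

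To set the genes beside one another, mean levels were divided by exon length. In Vehicle TAMs Cx3cr1 was highest, at 1184 ± 200 CPM per kilobase (SD, n = 5), followed by P2ry12 at 1156 ± 383, Tmem119 at 1010 ± 526, Olfml3 at 822 ± 208 and Gpr34 at 686 ± 174 CPM per kilobase. P2ry13 followed at 539 ± 132 CPM per kilobase. Slc2a5 (268 ± 58.8), Siglech (234 ± 34.6) and Ltc4s (234 ± 68.5 CPM per kilobase) were lowest. Each neighbouring pair in this order overlapped in its range over libraries, so the order of neighbours is not firm. In Endpoint Gpr34 had the highest mean, at 735 ± 94.9 CPM per kilobase (n = 6), and Siglech, at 325 ± 46.4, lay above P2ry13 and Slc2a5. In Rebound Slc2a5 was lowest, at 27.1 ± 14.8 CPM per kilobase (n = 5).

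**Figure D1:**
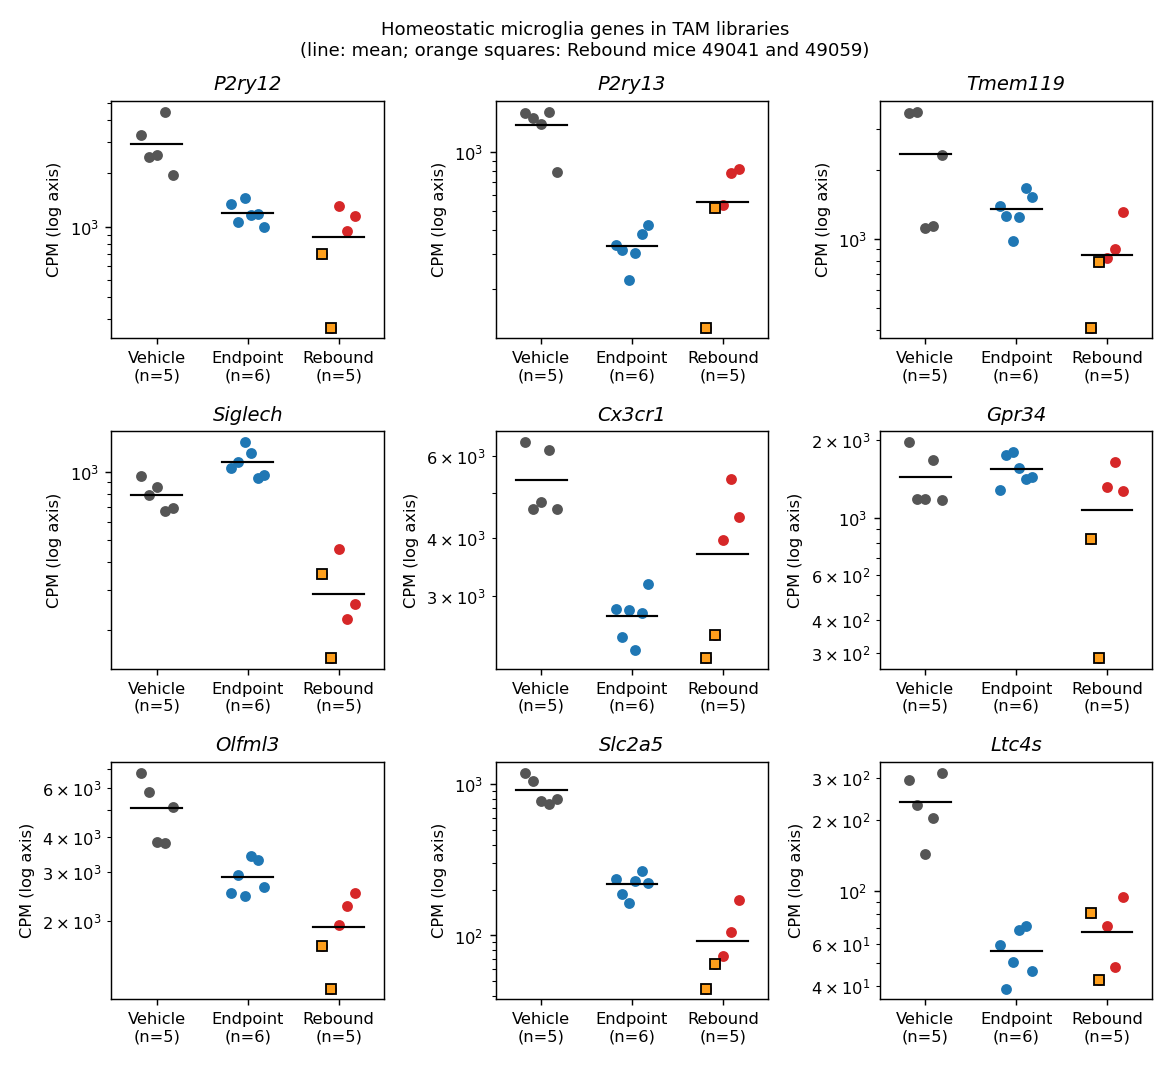
CPM (log axes, each panel with its own range) of each of the 9 genes in Vehicle (n = 5), Endpoint (n = 6) and Rebound (n = 5) TAM libraries, 1 point a library, with a line at the group mean. Orange squares mark Rebound mice 49041 and 49059, which were the 2 lowest Rebound libraries for each gene but Siglech and Ltc4s.

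In Endpoint TAMs 6 of the 9 genes fell against Vehicle (edgeR quasi-likelihood test, adjusted p under 0.05). Ltc4s was 4.25-fold lower, Slc2a5 4.17-fold, P2ry13 4.12-fold, P2ry12 2.46-fold, Cx3cr1 1.96-fold and Olfml3 1.76-fold lower. Tmem119, Siglech and Gpr34 did not pass. None rose in the main edgeR fit or by DESeq2. Siglech was the 1 higher gene at an unadjusted p under 0.05 in the main fit. With only these 2 stages fitted, edgeR called 6 lower and 1 higher. Of all 13315 genes tested 33.0% were called in this comparison, and 19.3% were called lower. The median log2 difference was -0.97 over the 9 genes and -0.03 over all genes tested. Scaling mattered here: TMM scaling, used throughout, gave 1821 higher and 2569 lower genes of all tested, library totals alone gave 3804 and 1148 (all genes shifted by 0.41 on the log2 scale), and scaling to 13 pan-myeloid genes gave 4349 and 929 (shifted by 0.5). For the 9 genes the calls were 6 lower by TMM, 5 lower and 1 higher (Siglech) by library totals, and 4 lower and 1 higher (Siglech) by pan-myeloid scaling. In bulk libraries fewer cells of a type and less RNA per cell cannot be told apart.

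In Rebound TAMs 7 of the 9 fell against the same Vehicle libraries, beside 14.7% of all genes called and 7.73% called lower. P2ry12, P2ry13, Tmem119, Siglech, Olfml3, Slc2a5 and Ltc4s passed, and Cx3cr1 and Gpr34 did not. None rose in the main edgeR fit or by DESeq2, and none was higher at an unadjusted p under 0.05 in the main fit. The median was -1.45 over the 9 genes and 0.02 over all genes tested. By TMM 932 of all genes were higher and 1029 lower, by library totals 1260 and 499 (shifted by 0.18), and by pan-myeloid scaling 2007 and 273 (shifted by 0.33). Rebound set directly against Endpoint gave 2 lower genes, Siglech and Slc2a5, beside 17.6% of all genes called (5.90% lower). None was called higher in the main edgeR fit or by DESeq2, and 2 were higher at an unadjusted p under 0.05 in the main fit (P2ry13 and Cx3cr1). The split of all genes was 1552 higher and 785 lower by TMM, 1040 and 1711 by library totals (shifted by -0.23) and 1068 and 1292 by pan-myeloid scaling (shifted by -0.17). The 3 comparisons share libraries with one another, so each one's values are given for each gene below.

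**Figure D2:**
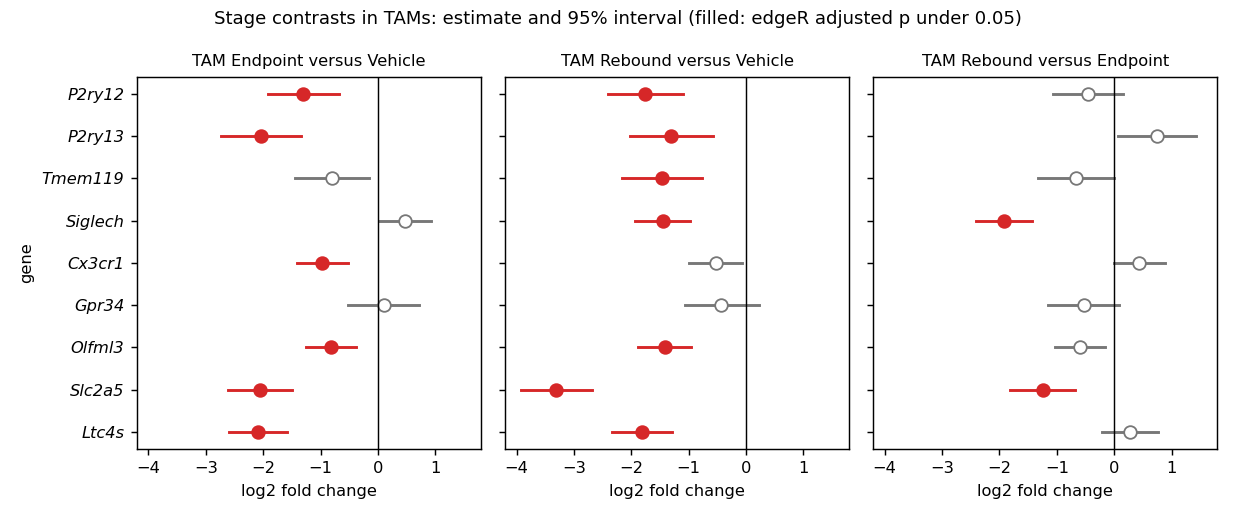
Log2 fold change with its 95% interval for each of the 9 genes in the 3 comparisons among TAM libraries, with filled points where the edgeR adjusted p was under 0.05. The 15 filled points all lie left of 0.

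The receptor P2ry12 was at 3281, 2460, 2555, 4467 and 1948 CPM in the Vehicle libraries (mice 54359, 54363, 57098, 57682 and 64247, the order used throughout). In Endpoint its lowest, median and highest values were 989, 1171 and 1449 CPM. In Rebound it was at 696, 269, 1302, 943 and 1147 CPM (mice 49041, 49059, 49827, 49834 and 49849, the order used throughout). Every BLZ945 library lay below every Vehicle library, and mouse 49059 lay far below the other Rebound mice. P2ry12 fell by 1.3 on the log2 scale in Endpoint (SE 0.293, edgeR adjusted p = 0.00237). Its Endpoint value was smaller, at -0.76, with libraries scaled to pan-myeloid genes (adjusted p = 0.0257; 0.000153 to 0.0257 over all alternatives). P2ry12 fell by 1.76 in Rebound (SE 0.314, adjusted p = 0.00187), and Rebound did not differ detectably from Endpoint (-0.46, 95% interval -1.07 to 0.16).

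Its neighbour P2ry13 was at 1573, 1480, 1375, 1599 and 785 CPM in Vehicle. In Endpoint it ran from 223 through a median of 325 to 425 CPM. In Rebound it was at 127, 518, 534, 774 and 811 CPM. All Endpoint libraries lay below all Vehicle libraries, while 4 of 5 Rebound libraries lay above all Endpoint libraries and mouse 49041 below them all. P2ry13 fell by 2.04 in Endpoint (SE 0.329, edgeR adjusted p = 0.000174) and fell by 1.3 in Rebound (SE 0.343, adjusted p = 0.0174). The Rebound call was lost when only these 2 stages were fitted, at the same -1.3 (adjusted p = 0.0588; 0.00239 to 0.0601 over all alternatives). Rebound against Endpoint was 0.74 (SE 0.322, edgeR adjusted p = 0.122). Without mouse 49041 that difference passed, at 1.00 (adjusted p = 0.00503; 0.00503 to 0.426 over all alternatives).

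The fractalkine receptor Cx3cr1 was at 6441, 4612, 4796, 6185 and 4627 CPM in Vehicle. In Endpoint the lowest, median and highest values were 2298, 2780 and 3179 CPM. In Rebound it was at 2204, 2468, 3968, 5358 and 4437 CPM. Endpoint lay below Vehicle in every library, whereas Rebound split into 2 mice below the Endpoint median, 2 mice between the Endpoint and Vehicle ranges and 1 mouse within it. Cx3cr1 fell by 0.97 in Endpoint (SE 0.21, edgeR adjusted p = 0.00172). With libraries scaled to pan-myeloid genes that difference was -0.44 and did not pass (adjusted p = 0.0517; 7.56e-05 to 0.0517 over all alternatives). The Rebound difference from Vehicle was -0.53 (SE 0.22, edgeR adjusted p = 0.11), and it passed without mouse 49834 (-0.72, adjusted p = 0.0372; 0.0372 to 0.669 over all alternatives). Against Endpoint it was 0.44 (SE 0.21, edgeR adjusted p = 0.157).

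Gpr34, the lysophosphatidylserine receptor, was at 1959, 1183, 1182, 1674 and 1170 CPM in Vehicle. In Endpoint it ran from 1280 to 1787 CPM. In Rebound it was at 825, 286, 1308, 1645 and 1265 CPM. Endpoint lay inside the Vehicle range, and 3 Rebound mice did too. No comparison passed: Endpoint against Vehicle was 0.1 (95% interval -0.52 to 0.72), and Rebound against Vehicle was -0.43 (-1.07 to 0.22). Rebound against Endpoint was -0.53 (-1.15 to 0.09).

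Siglech, the Siglec family gene, was at 956, 789, 855, 671 and 695 CPM in Vehicle. In Endpoint the lowest, median and highest values were 936, 1069 and 1349 CPM. Rebound libraries held it at 353, 151, 458, 225 and 261 CPM. Rebound was below both other stages in every library, and 5 of 6 Endpoint libraries lay above every Vehicle library. Siglech fell by 1.45 in Rebound against Vehicle (SE 0.233, edgeR adjusted p = 0.000895) and fell by 1.92 against Endpoint (SE 0.23, adjusted p = 4.07e-05). Its Endpoint difference from Vehicle was 0.47 (SE 0.22, edgeR adjusted p = 0.108), and it passed in 3 of 25 alternatives, the largest at 0.99 with libraries scaled to pan-myeloid genes. The 8 other markers of plasmacytoid dendritic cells, which also carry Siglech, summed to 367 to 772 CPM in Vehicle, 307 to 401 CPM in Endpoint and 350 to 487 CPM in Rebound TAMs. All 8 were detected in Vehicle and in Rebound TAMs, and Klk1 was at 0 in Endpoint TAMs. The part of such cells in these levels was not tested.

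Tmem119, the staining marker, was at 3532, 3585, 1115, 1132 and 2329 CPM in Vehicle. In Endpoint the lowest, median and highest values were 978, 1322 and 1666 CPM. The Rebound values were 410, 795, 827, 898 and 1303 CPM. The Vehicle libraries fell apart into 3 high and 2 low ones, and the low pair lay among the Endpoint libraries. In the low pair (mice 57098 and 57682) the gene Rn45s held 1.71 and 0.391% of all counts. In the 3 high libraries it held 6.83 to 7.66%. The part of that difference in the Tmem119 levels was not tested. Tmem119 fell by 1.47 in Rebound (SE 0.331, edgeR adjusted p = 0.00746). The Endpoint difference was -0.8 (SE 0.31, edgeR adjusted p = 0.054). It passed without any one of the mice 57098, 57682, 49041 and 49849 (adjusted p = 0.0163, 0.0193, 0.0377 and 0.0498) and with DESeq2 (0.0428; 0.0163 to 0.435 over all alternatives). Rebound against Endpoint was -0.67 (SE 0.314, edgeR adjusted p = 0.153), and it passed in 3 of 27 alternatives (0.0272 to 0.502).

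The secreted protein gene Olfml3 was at 6779, 5789, 3826, 3801 and 5120 CPM in Vehicle. In Endpoint the lowest and highest values were 2462 and 3414 CPM. Its Rebound levels were 1630, 1146, 1936, 2259 and 2513 CPM. No BLZ945 library reached the Vehicle range, and 4 of 5 Rebound libraries lay below every Endpoint library. Olfml3 fell by 0.82 in Endpoint (SE 0.206, edgeR adjusted p = 0.00527) and fell by 1.42 in Rebound (SE 0.22, adjusted p = 0.000722). With the mouse as a replicate block over both sorts the Endpoint difference was -0.91 and did not pass (limma adjusted p = 0.0566), and it was -0.38 with library totals only (edgeR adjusted p = 0.0782) and -0.31 with libraries scaled to pan-myeloid genes (adjusted p = 0.133; 0.000972 to 0.133 over all alternatives). Rebound against Endpoint was -0.6 (SE 0.209, adjusted p = 0.0537), and it passed in 14 of 27 alternatives.

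The fructose transporter Slc2a5 was at 1195, 1049, 773, 740 and 800 CPM in Vehicle. In Endpoint the lowest and highest values were 165 and 268 CPM. In the Rebound mice it was 44.5, 64.5, 72.7, 106 and 173 CPM. The 3 stages stepped down, and only Rebound mouse 49849 reached into the Endpoint range. Slc2a5 fell by 2.06 in Endpoint (SE 0.267, edgeR adjusted p = 2.41e-05) and fell by 3.31 in Rebound (SE 0.299, adjusted p = 6.53e-06), the largest fall of the 9 genes. Rebound was 9.89-fold lower than Vehicle. Against Endpoint it fell by 1.24 (SE 0.27, adjusted p = 0.00376).

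Ltc4s, the leukotriene C4 synthase gene, was at 294, 230, 143, 204 and 315 CPM in Vehicle. In Endpoint the lowest and highest values were 38.9 and 71.1 CPM. Across the Rebound mice it stood at 81.3, 42.1, 71.6, 47.8 and 94.4 CPM. Both BLZ945 stages lay below Vehicle in every library and overlapped each other. Ltc4s fell by 2.09 in Endpoint (SE 0.24, edgeR adjusted p = 8.32e-06) and fell by 1.82 in Rebound (SE 0.253, adjusted p = 0.000311). Rebound against Endpoint was 0.27 (95% interval -0.22 to 0.77).

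Rebound mice 49041 and 49059 stood apart from the other Rebound TAM libraries. With each gene centred on its mean over the 16 TAM libraries, the mean of the 9 genes was -1.16 and -1.37 in these mice and -0.42 to -0.15 in the other 3, on the log2 scale. The 10 T and NK cell markers in the table summed to 120 and 204 CPM in the same mice, 39.6 CPM in mouse 49849, 1.87 to 9.55 CPM in Vehicle and 3.89 to 30.1 CPM in Endpoint. Endpoint mice 49823 (30.1 CPM) and 49831 (14.4 CPM) lay above every Vehicle library too and were kept in the fits that follow. All 10 markers were detected in each stage. The choice to leave out Rebound mice was made after the data were seen. Without Rebound mice 49041 and 49059, 4 genes were called between Rebound and Endpoint, beside 1345 of all genes (2337 with them). Siglech (-1.8) and Slc2a5 (-0.89) were lower, and P2ry13 (1.1, edgeR adjusted p = 0.00587) and Cx3cr1 (0.76, adjusted p = 0.0113) were higher. Both mice lay below the other Rebound mice for P2ry13 and Cx3cr1. Leaving them out therefore had to raise the Rebound means of these genes, so the higher calls are no separate evidence. The adjusted p over all alternatives ran from 0.00503 to 0.426 for P2ry13 and from 0.0113 to 0.566 for Cx3cr1. Without mouse 49849 as well the same 4 were called, beside 592 of all genes. The count against Vehicle was then 7 without both mice and 5 without all 3, with P2ry13 (adjusted p = 0.0601; 0.00239 to 0.0601 over all alternatives) and Tmem119 (0.0667; 0.000309 to 0.0667) no longer passing. The part of lymphocytes in these values was not tested.

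Summed levels of markers of further cell types were not tested and are given as ranges over the TAM libraries. The 8 myelinating oligodendrocyte markers summed to 372 to 745 CPM in Vehicle, 695 to 1886 CPM in Endpoint and 838 to 3229 CPM in Rebound. The 12 tumour cell and progenitor markers summed to 36.4 to 76.8, 34.2 to 64.4 and 48.5 to 394 CPM. Neutrophil markers (9 genes) summed to 495 to 1105, 348 to 957 and 620 to 2632 CPM. The 8 choroid plexus and ependymal markers were at 1.85 to 5.23 CPM in Vehicle, 49.3 to 126 CPM in Endpoint and 1.44 to 415 CPM in Rebound, with Ccdc153 and Tmem212 at 0 in Vehicle and Endpoint. Cycling markers (8 genes) summed to 142 to 720, 353 to 701 and 89.6 to 219 CPM. The 9 neuron markers summed to 7.33 to 13.6, 22 to 50.4 and 19.3 to 42 CPM, so that neither BLZ945 stage overlapped Vehicle. The 9 astrocyte markers summed to 1458 to 2602, 1487 to 2566 and 498 to 1516 CPM. Pericyte and fibroblast markers (8 genes) summed to 17.7 to 34.8, 6.44 to 19.6 and 10.7 to 135 CPM, with Rgs5 at 0 in Endpoint. All these markers except Foxj1, Ccdc153, Tmem212 and Rgs5 had counts in each of the 3 stages. Their part in the 9 genes' levels was not tested.

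Across the 16 TAM libraries the 9 genes mostly varied together. Of their 36 pairs 34 had a positive Pearson r of log2 CPM, with a median r of 0.606. The closest pair was Olfml3 with Slc2a5 (0.939), then Cx3cr1 with P2ry13 (0.898). Siglech had the only negative pairs, at -0.08 with P2ry13 and -0.093 with Cx3cr1. Its other pairs ran from 0.168 with Ltc4s to 0.656 with Gpr34. After centring on stage means 31 pairs were positive and 5 negative, with a median of 0.379, and P2ry12 with Gpr34 was highest (0.88). The libraries of a pair share depth, scaling and the 3 stages, so these values are descriptions.

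**Figure D3:**
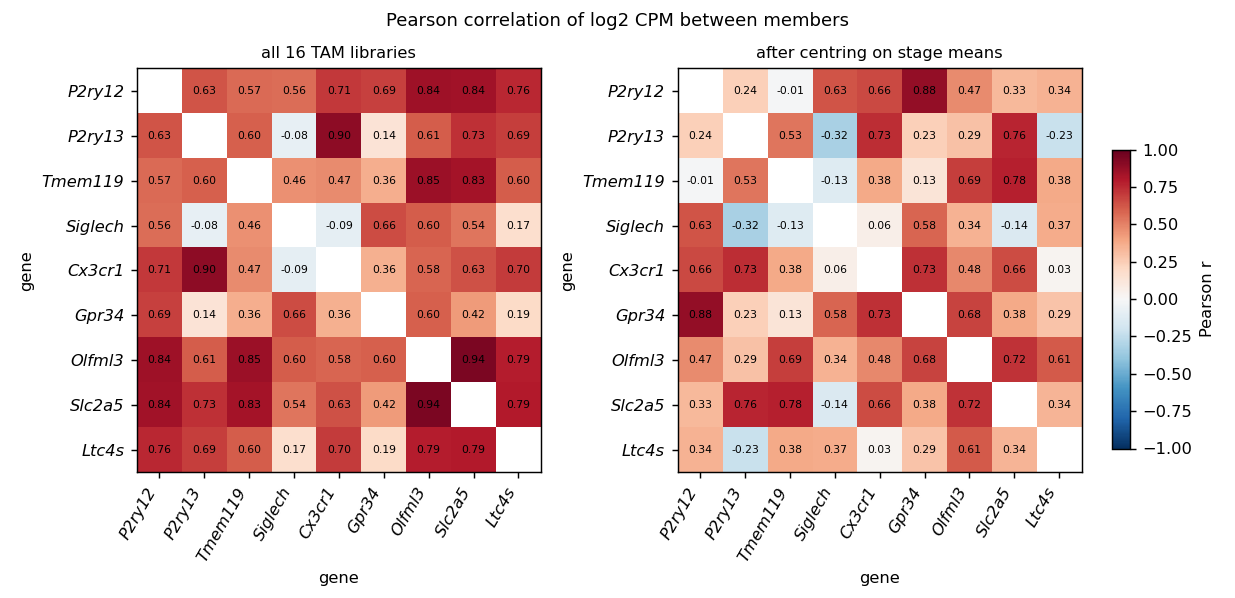
Pearson r of log2 CPM for each pair of the 9 genes over 16 TAM libraries (left) and after centring each gene on its stage means (right), with the colour scale from -1 to 1. Siglech with P2ry13 and with Cx3cr1 are the only pairs below 0 on the left.

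The genes whose log2 CPM was most like the mean of the 9, over 16 libraries and 13315 genes, were Tmem63a (r = 0.957), Bscl2 (0.936), Zfyve19 (0.934), Fam3a (0.926) and Laptm5 (0.924). Next were Cpt2 (0.92), Snx17 (0.92), Zdhhc12 (0.919), Sparc (0.912) and Atg4b (0.912). After centring on stage means the r was highest for Fam3a (0.908) and lowest for Atg4b (0.538). Sparc encodes a secreted matrix-associated protein that microglia also make, and Laptm5 a lysosomal protein of blood-lineage cells. Of the 9 themselves, Olfml3 (0.954) and Slc2a5 (0.944) were closest to the mean of the other 8, and Siglech (0.422) was farthest.

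Other genes of the same cell state were taken from lists chosen for this tissue, and none were used in the choice of the 9. Their counts are to be read beside the shares of all 13315 genes called: 33.0% in Endpoint against Vehicle (19.3% lower), 14.7% in Rebound against Vehicle (7.73% lower) and 17.6% in Rebound against Endpoint (5.90% lower). Median log2 differences below are in the same order of comparisons. All are by TMM scaling, and the lists were not counted under other scalings. Library totals and pan-myeloid scaling shifted all genes by 0.41 and 0.5 in Endpoint against Vehicle. The shifts were 0.18 and 0.33 in Rebound against Vehicle, and -0.23 and -0.17 in Rebound against Endpoint. A list median of such a size depends on the scaling. Of 35 other homeostatic microglia genes 13 fell and 2 rose in Endpoint, 17 fell and none rose in Rebound against Vehicle, and 9 fell and 2 rose in Rebound against Endpoint. Their medians were -0.4, -0.79 and -0.41, beside all-gene medians of -0.03, 0.02 and 0.02. In Endpoint the fall was steep for Ecscr (161 ± 46.5 to 3.26 ± 3.81 CPM, edgeR adjusted p = 2.67e-05) and Rtn4rl1 (15.4 ± 8.36 to 0.658 ± 0.476 CPM, 5.12e-06). Both were partly back in Rebound, at 20.2 ± 12.8 and 2.48 ± 0.924 CPM. Ecscr is also an endothelial gene, and the 8 endothelial markers summed to 26.5 to 49.6 CPM in Vehicle, 9.12 to 22 CPM in Endpoint and 54.5 to 128 CPM in Rebound TAMs.

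In Rebound against Vehicle, Gpr56 (Adgrg1), an adhesion receptor of microglia, fell from 1012 ± 367 to 247 ± 91.6 CPM (edgeR adjusted p = 0.000391). Crybb1, a crystallin gene carried by immature microglia, fell from 177 ± 85.8 to 27.8 ± 15.3 CPM (adjusted p = 0.000639). Csf1r fell too, by 1.27 (SE 0.216, adjusted p = 0.00136). Selplg, the ligand of P-selectin, was lower in Rebound than in Endpoint, at 735 ± 89.3 against 1838 ± 126 CPM (adjusted p = 0.00212). Sall1, a transcription factor of microglia, was 0.64 in Endpoint against Vehicle (adjusted p = 0.0738) and fell by 0.99 in Rebound against Endpoint (adjusted p = 0.0168).

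Receptors and enzymes that act on extracellular nucleotides are the partners of P2ry12 and P2ry13. Of 13 tested, 6 fell and 1 rose in Endpoint, 3 fell and 1 rose in Rebound against Vehicle, and 1 fell and 4 rose in Rebound against Endpoint (medians -1.06, -0.5 and 0.61). The uridine diphosphate receptor P2ry6 fell from 759 ± 152 CPM in Vehicle to 343 ± 45.2 CPM in Endpoint (edgeR adjusted p = 3.73e-05) and 441 ± 62.6 CPM in Rebound (0.00487). The adenosine transporter Slc29a1 fell from 203 ± 36.2 to 97.5 ± 27.7 and 75.5 ± 14.4 CPM (adjusted p = 0.000512 and 0.000416). P2ry14, a receptor for UDP-glucose, rose in Rebound from 9.63 ± 6.02 to 34 ± 19.7 CPM (0.0109). Nt5e, which makes adenosine, was 1.01 ± 0.371 CPM in Endpoint and 20.8 ± 19.3 CPM in Rebound (0.00489), P2rx4 187 ± 23.3 and 326 ± 47.2 CPM (0.00378).

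Slc2a5 was read beside other hexose transporters and the first enzymes of glycolysis. Of 16 tested, 11 fell and 1 rose in Endpoint and 7 fell in Rebound against Vehicle, but 9 rose and 1 fell in Rebound against Endpoint (medians -1.44, -0.66 and 0.96). The glucose transporter Slc2a1 was 203 ± 47.7 CPM in Vehicle, 37 ± 5.34 CPM in Endpoint and 101 ± 35.6 CPM in Rebound (edgeR adjusted p = 1.29e-06 for Endpoint against Vehicle and 0.000359 for Rebound against Endpoint). Slc2a6 was 180 ± 54.4, 38.9 ± 15 and 123 ± 32.9 CPM. Slc2a5 itself fell further in Rebound, as given above. Khk, the enzyme that phosphorylates fructose, fell in Rebound against Vehicle from 86.1 ± 27.3 to 44.5 ± 6.45 CPM (adjusted p = 0.00352).

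Ltc4s was read beside other genes of leukotriene and prostanoid synthesis. Of 15 tested, 8 fell in Endpoint, 1 fell in Rebound against Vehicle and 4 rose in Rebound against Endpoint, with no call in the other direction (medians -0.67, -0.27 and 0.15). The phospholipase Pla2g4a, which releases arachidonic acid, went from 142 ± 59.9 CPM in Vehicle to 38.6 ± 11.3 CPM in Endpoint and 98.9 ± 34.9 CPM in Rebound. Endpoint differed from Vehicle (edgeR adjusted p = 0.000108) and from Rebound (0.00325). Thromboxane synthase Tbxas1 fell from 509 ± 55 CPM to 248 ± 43.3 and 250 ± 33.6 CPM (adjusted p = 6.44e-05 and 0.000709). Alox5, which starts leukotriene synthesis, fell by 1.44 in Endpoint (adjusted p = 0.0224).

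Of 19 TGF-beta and microglia identity factors 5 fell and 4 rose in Endpoint, 3 fell and 2 rose in Rebound against Vehicle, and 3 fell and 2 rose in Rebound against Endpoint. The list's medians, -0.04, -0.06 and -0.01, lay near those of all genes tested, and its lower calls in Endpoint, 5 of 19, are to be set beside 19.3% of all genes. Lrrc33 (Nrros), which presents latent TGF-beta on microglia, was 395 ± 97 CPM in Vehicle, 32.8 ± 5.89 CPM in Endpoint and 224 ± 101 CPM in Rebound. It had the lowest adjusted p of the list in both comparisons with Endpoint, at -3.59 against Vehicle (edgeR adjusted p = 2.52e-07) and 2.77 in Rebound against Endpoint (1.25e-05). Smad4, a TGF-beta signal transducer, rose in Endpoint from 18.5 ± 5.13 to 53.2 ± 12.4 CPM (2.59e-05), and the receptor Tgfbr1 rose by 0.64 (0.0481). Mef2a rose from 78.4 ± 11.1 to 180 ± 45.6 CPM (0.000135). Tgfb1, Tgfbr2 and Smad3 did not pass in any of the 3 comparisons.

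Lists of other macrophage states were counted in the same libraries, Rebound mice 49041 and 49059 among them. None of the gene lists was counted again without these mice. Over all genes, leaving them out took the calls in Rebound against Endpoint from 2337 to 1345. Of 26 monocyte-derived macrophage genes 14 fell in Endpoint, 1 rose in Rebound against Vehicle and 17 rose in Rebound against Endpoint (medians -1.53, 0.64 and 2.13). Lyz2, the lysozyme gene, was 2105 ± 821, 726 ± 267 and 3394 ± 449 CPM in Vehicle, Endpoint and Rebound (edgeR adjusted p = 0.000169 for Endpoint against Vehicle and 3.22e-05 for Rebound against Endpoint). Of 14 border-associated macrophage genes 10 fell in Endpoint, 2 fell and 1 rose in Rebound against Vehicle and 10 rose in Rebound against Endpoint (medians -2.67, 0.05 and 2.66), the endocytic adaptor Dab2 from 8.16 ± 9.6 to 228 ± 130 CPM (0.00112). Of 26 disease-associated microglia genes 14 fell in Endpoint, 2 fell and 4 rose in Rebound against Vehicle and 16 rose in Rebound against Endpoint (medians -1.23, 0.27 and 1.42). Ctsl, which encodes the lysosomal protease cathepsin L, was 1242 ± 248, 388 ± 103 and 685 ± 116 CPM and had the lowest adjusted p of that list in Endpoint (8.32e-06). Clec7a, the beta-glucan receptor gene, was 115 ± 56.6, 211 ± 102 and 1029 ± 281 CPM, and it rose in Rebound against Vehicle (0.000274) and against Endpoint (0.000685). Hif1a, a transcription factor of the hypoxia response, was 161 ± 49.8, 92.3 ± 23.5 and 342 ± 76.5 CPM and was called in all 3 comparisons. Of 13 pan-myeloid genes 7 fell in Endpoint, 4 fell in Rebound against Vehicle and 2 rose in Rebound against Endpoint (medians -0.61, -0.3 and 0.14).

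In the TC libraries the 9 genes were low. TAM levels were above TC levels for 9 of 9 genes in Vehicle, beside 54.8% of all 15668 genes called (25.6% higher in TAM). The same held for 8 of 9 in Endpoint (51.1% called, 18.7% higher) and 9 of 9 in Rebound (47.8% called, 20.4% higher). In same-mouse pairs the TC level was a median of 1.04 to 2.31% of the TAM level across the 9 genes in Vehicle (5 mice). In Rebound (4 mice) the medians ran from 0.129 to 4.1%. In Endpoint (6 mice) 8 genes had medians of 2.86 to 5.68%, and the remaining gene was Ltc4s, at 89.7%.

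**Figure D4:**
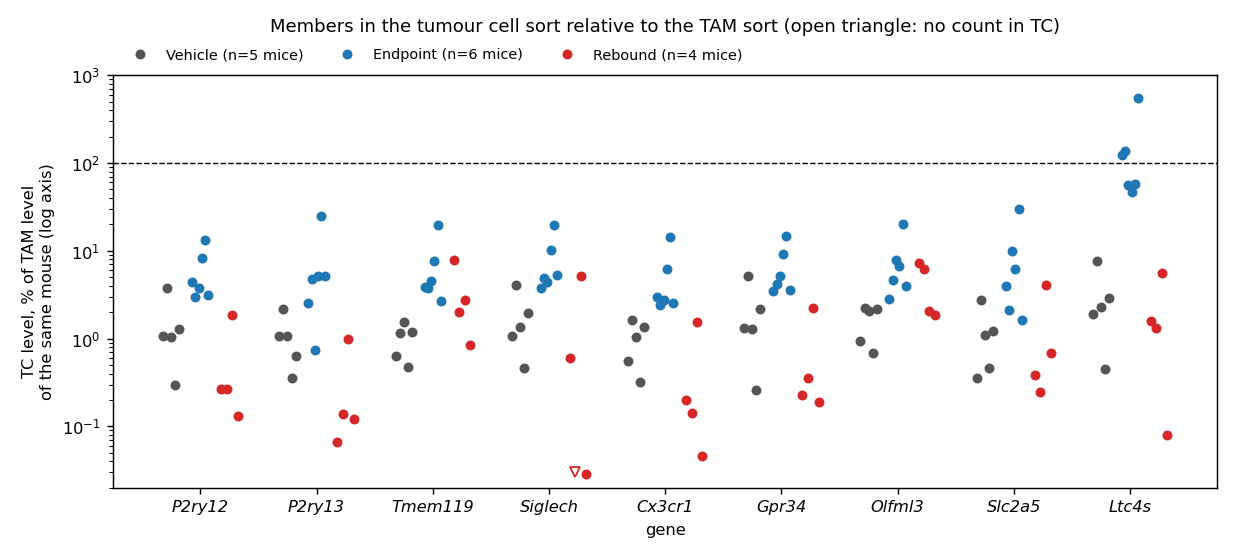
Level of each of the 9 genes in the TC library as a percentage of the TAM library of the same mouse (log axis), 1 point a mouse for Vehicle (5), Endpoint (6) and Rebound (4), with a dashed line at equal levels and an open triangle at the foot of the plot for a gene without counts in TC. Ltc4s is the only gene with points above the line, in 3 Endpoint mice.

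Ltc4s in the libraries labelled TC was at 9.16, 26, 5.11, 1.42 and 13.7 CPM in Vehicle. Endpoint values had a lowest, median and highest of 40.1, 65.9 and 357 CPM, the highest in mouse 49845. Rebound libraries held it at 1.89, 0.826, 0.214, 5.88 and 0.108 CPM (mice 49041, 49059, 49692, 49827 and 49849, the order for this sort). All Endpoint libraries lay above all others. The same-mouse percentage was 46.2 to 551% in Endpoint, and TC was above TAM in 3 of 6 mice. TAM against TC in Endpoint was -0.54 (SE 0.606, edgeR adjusted p = 0.474), and without TC mouse 49845 it was 0.29 (adjusted p = 0.701; 0.344 to 0.984 over all alternatives).

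Between TC stages, Tmem119 (2.03, SE 0.59, edgeR adjusted p = 0.0187) and Ltc4s (3.36, SE 0.966, adjusted p = 0.0187) rose in Endpoint against Vehicle. Of all 14985 genes 28.7% were called, 2093 higher and 2212 lower. The 2 of 9 genes called were not above that share of 28.7%. With the mouse as a replicate block 6 were called, and 6395 of all genes were called against 4305 in the main fit. In Rebound against Vehicle edgeR called none of the 9 (0.0734% of all genes were called), with 5 at an unadjusted p under 0.05. DESeq2 called 3, the replicate block 5, and edgeR 7 without TC Rebound mouse 49827. Of all genes the main fit called 11, DESeq2 679 and the replicate block 1177, so calls rose well beyond the 9 genes. All 9 were lower in Rebound than in Endpoint, from -1.76 (Olfml3) to -6.03 (Ltc4s) on the log2 scale, beside 25.1% of all genes called (11.5% lower). Siglech lost that call in 8 of 24 alternatives (-3.63 to -7.44, edgeR adjusted p up to 0.0803), among them those without TC Endpoint mouse 49831 or 49843 and those without any one of the Rebound mice 49041, 49059, 49692 and 49849. Olfml3 lost it in 3, at -1.12 without TC Endpoint mouse 49843 (adjusted p = 0.0523), -1.67 without Rebound mouse 49692 (0.0632) and -1.65 without 49849 (0.0637). Without TC Rebound mouse 49827 the differences of P2ry12 (-5.24), Cx3cr1 (-5.33) and Gpr34 (-5.81) were larger, against -3.45, -3.16 and -3.77 with it. Siglech was at 57.3 to 256 CPM in Endpoint, at 34.5 CPM in Rebound mouse 49827 and at 0 to 3.15 CPM in the other 4 Rebound mice.

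Markers of other cells in the TC stages were not tested and are given as ranges in the same order. The 10 T and NK cell markers summed to 3.31 to 11.3 CPM in Vehicle, 8.78 to 5750 CPM in Endpoint (median 4117) and 2.56 to 3351 CPM in Rebound (median 10.3). The 8 choroid plexus and ependymal markers summed to 11.4 to 615, 6386 to 216865 and 1.39 to 1158 CPM. Tumour cell and progenitor markers (12 genes) summed to 2759 to 9757, 376 to 2944 and 2897 to 9461 CPM. Myelinating oligodendrocyte markers (8 genes) summed to 3222 to 18358, 22954 to 34287 and 1050 to 18851 CPM, with every Endpoint library above all others. Pericyte and fibroblast markers (8 genes) summed to 12.9 to 151, 267 to 1015 and 120 to 7952 CPM. All of these were detected in each stage. Csf1r was 162 ± 93.2, 518 ± 478 and 22.3 ± 36.3 CPM in TC Vehicle, Endpoint and Rebound. The part of any of these cells in the levels of Ltc4s or of the other 8 genes was not tested.

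The stage difference itself differed between the sorts, by the interaction term over all 32 libraries. In Endpoint against Vehicle the log2 difference was more negative in TAM than in TC for 6 genes (P2ry13, Tmem119, Cx3cr1, Olfml3, Slc2a5 and Ltc4s), beside 25.7% of all genes called (17.0% in that direction). The TC differences of these 6 were all positive, from 0.69 to 3.36, and the TAM ones all negative. Of the TC ones only Tmem119 and Ltc4s were called, and P2ry13 and Slc2a5 each turned negative in 1 of 24 alternatives. In TAM, Tmem119 was not called (edgeR adjusted p = 0.054). The interaction calls of P2ry13 and Cx3cr1 were each lost in 7 of 40 alternatives, and that of Slc2a5 in 2. Ltc4s had the largest interaction term, at -5.58 (SE 0.961, edgeR adjusted p = 0.000168). In Rebound against Endpoint 6 differences were positive (P2ry12, P2ry13, Cx3cr1, Gpr34, Slc2a5 and Ltc4s), beside 20.6% (13.4% in that direction). In Rebound against Vehicle edgeR called none of the 9 (0.517% of all genes were called), none had an unadjusted p under 0.05, DESeq2 called none, and 4 were called by edgeR without TC Rebound mouse 49827. Without TC Endpoint mouse 49843 the first count was 3, and Slc2a5 in Rebound against Endpoint no longer passed (2.06, adjusted p = 0.0713; 0.00116 to 0.0713 over all alternatives).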

How the data were processed

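RNA was sequenced from sorted TAM and TC cells with a SMART-Seq kit as 2 reads of 50 bases, per the labels' protocols. The deposited values are raw counts per gene symbol. STAR 2.3.0e, SAMtools and the mm10 build are named in the submitters' processing notes. The sources used here give neither the counting program nor its annotation. Every Endpoint and Rebound count is even, and Vehicle counts are not.

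Counts were analysed in R 4.3.3 with edgeR 4.0.16: filterByExpr (minimum count 10, minimum total 15), TMM scaling, robust quasi-likelihood tests and Benjamini-Hochberg adjustment over all genes tested, with a threshold of 0.05. TAM stages were fitted over 16 TAM libraries, TC stages over 16 TC libraries, and comparisons between sorts over all 32. CPM are TMM-scaled within the fit. A standard error is the log2 fold change divided by the square root of F. Different mice are the replicates. No pair of libraries of one group was a duplicate (70 pairs, lowest chi-square per degree of freedom 11.1). Alternatives were DESeq2 1.42.0, other scalings, no filter, halved counts, groups compared alone, leaving out each library, and a replicate block for the mouse (limma 3.58.1, voom with duplicateCorrelation, or mouse as a fixed term). The mouse pairs the 2 sorts, since both libraries come from 1 animal. In all 15 such mice the deviations from group means correlated positively (r = 0.011 to 0.337, median 0.066).

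The 9 genes and the gene lists were chosen with earlier results of these data known. Named genes were all 9, up to 3 genes of each gene list with the lowest adjusted p per TAM comparison, the 10 genes most correlated with the mean of the 9 (log2 CPM, prior count 2), and Csf1r. Pdgfra, Sall1, Alox5, Tgfb1, Tgfbr1, Tgfbr2 and Smad3 were named for their role after their values were seen. Gene positions and exon lengths came from GENCODE on GRCm38, and promoters from RefSeq on GRCm38.p6. Counts were also simulated, with 200 genes changed in each fit. On these counts the TAM fit (13094 genes) recovered 59% of genes changed by 1 on the log2 scale, for Endpoint against Vehicle. It recovered 94% of those changed by 2. The TC fit recovered fewer for the same stages, 12% and 76%. The fit between the sorts recovered 34% and 88% in Vehicle. In the data 33.0% (TAM) and 28.7% (TC) of genes were called for Endpoint against Vehicle. The adjusted threshold was therefore stricter on the simulated counts, and these shares do not measure recovery in the data. A gene without a call in the TC libraries can still differ. Total counts are given with the results, and their part in the error of the 9 genes was not tested.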

Additional observations from a re-analysis of the deposited data

Results flagged for a closer look

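In 54 sets of libraries (9 genes in 6 groups), 13 held a library far from the others by Dixon's criterion. By chance the criterion flags about 1 in 20 sets only where values follow a normal distribution and sets are independent. Here the 9 genes share libraries, and CPM were not checked for that distribution, so the 13 cannot be set against that rate. TC Rebound mouse 49827 was high for 5 genes: P2ry12 at 35.8, P2ry13 at 7.71, Siglech at 34.5, Cx3cr1 at 90.9 and Gpr34 at 42.8 CPM. TC Endpoint mouse 49843 was high for 5: P2ry13 at 130, Tmem119 at 449, Cx3cr1 at 551, Olfml3 at 905 and Slc2a5 at 110 CPM. TC Endpoint mouse 49845 was high for Ltc4s (357 CPM) and TC Vehicle mouse 54363 for Slc2a5 (42 CPM). In the TAM libraries Vehicle mouse 64247 was low for P2ry13 (785 CPM).

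The stage difference differed between TAM and TC by an interaction term in edgeR. For Endpoint against Vehicle the difference of log2 fold changes, TAM minus TC, was -2.82 for P2ry13, -2.93 for Tmem119, -2.48 for Cx3cr1, -2.3 for Olfml3, -2.99 for Slc2a5 and -5.58 for Ltc4s. For Rebound against Endpoint it was 3.04 for P2ry12, 4.75 for P2ry13, 3.64 for Cx3cr1, 3.29 for Gpr34, 3.26 for Slc2a5 and 6.4 for Ltc4s.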

How the results depend on the processing

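Of 3519 values of single genes under alternatives, 3395 kept their direction and side of the threshold, 36 lost a call, 78 gained one and 10 turned sign. The 2 genes called in TAM Rebound against Endpoint became 4 with library totals only, with only the groups compared, with pan-myeloid scaling and, chosen after seeing the data, without both or all 3 Rebound libraries with T and NK markers (2 to 3 when 1 library was left out). For TC Endpoint against Vehicle the 2 became 4 with DESeq2 or only the groups compared and 6 with the replicate block (2 to 5 with 1 library left out). For TC Rebound against Vehicle the 0 became 3 with DESeq2 and 5 with the replicate block (0 to 7). Over all genes, TC Endpoint against Vehicle called 4305, 5507 with DESeq2, 3931 with only the groups compared and 6395 with the replicate block. TC Rebound against Vehicle called 11, 679 with DESeq2 and 1177 with the replicate block. The 6 called between the sorts for Endpoint against Vehicle became 3 with library totals only (3 to 9), and the 0 for Rebound against Vehicle ranged from 0 to 4. The causes were not tested. Signs turned as follows. Gpr34 in TAM Rebound against Vehicle was 0.03 without the 3 Rebound libraries. Tmem119 in TC Rebound against Vehicle was 0.05 with the replicate block and -0.42 to 0.14 with 1 library left out. With 1 library left out, Ltc4s in TAM against TC at Endpoint ran from -0.72 to 0.29, P2ry13 in TC Endpoint against Vehicle from -0.35 to 1.13, Slc2a5 there from -0.28 to 1.56, and Slc2a5 between the sorts in Rebound against Vehicle from -0.44 to 1.33. Over all genes, TAM Rebound against Endpoint called 2337, 1180 with the replicate block and 592 without the 3 Rebound libraries; TAM Rebound against Vehicle 1961, 1050 and 525, and 999 with only the groups compared. The replicate block changed 1 call among the 9 genes between TAM stages, that of Olfml3 in Endpoint (-0.91). What depth limits was not tested: Siglech had 0 counts in TC Rebound mouse 49059, a library of 15466542 counts.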
